A study of Mus musculus with 8 samples.

Results

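The 6 Iroquois genes *Irx1* to *Irx6* and the HEY genes *Hey1* and *Hey2* encode transcription factors that pattern the ventricles of the developing heart, and their transcript levels were compared between wild-type (WT) and SIRT1 knockout (SIRT1 KO) mouse hearts. They were chosen by name, and every array probe whose accession belongs to one of these 8 genes was kept, which gave 11 probes of 41174 on the array and 8 genes of 19096 named there. The hearts came from 4 WT and 4 SIRT1 KO C57BL/6 embryos at E18.5, close to birth, with 1 heart on each one-color Agilent mouse array. SIRT1 is an NAD+-dependent protein deacetylase, the knockout was whole-body and germ-line, the parents were heterozygous, the colony was fed normal chow without further treatment, and hearts of both sexes were used. The comparison asks whether the levels of these factors differ with genotype in the whole heart. Because the tissue is bulk, fewer cells of a type and less RNA in each cell cannot be told apart.

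IRX proteins are homeodomain factors of the TALE class, and their genes lie in 2 clusters of 3, with *Irx1*, *Irx2* and *Irx4* in one and *Irx3*, *Irx5* and *Irx6* in the other. In the heart, *Irx4* is known as a marker of ventricular muscle that favours ventricular over atrial myosin, *Irx3* sets fast conduction in the His-Purkinje system, and *Irx5* shapes repolarization across the ventricular wall by repressing the potassium channel gene *Kcnd2*. *Hey1* and *Hey2* are basic helix-loop-helix repressors induced by Notch signaling. *Hey1* is found in atrial muscle and endocardium, and *Hey2* marks the compact ventricular wall, where it holds back atrial genes.

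The RefSeq table of promoters (GRCm38.p6) held *Irx2*, *Irx3*, *Irx4* and *Hey2*, and *Irx1*, *Irx5*, *Irx6* and *Hey1* had no entry. The 250 bases before the start of *Hey2* and of *Irx3* are shown because *Hey2* is a Notch target that was read in every heart, whereas *Irx3* is the only member that no array detected, and both windows carry the core letters of an RBPJ site. RBPJ is the DNA-binding partner of activated Notch. The *Hey2* window lies at chr10:30842784-30843033 and the *Irx3* window at chr8:91801655-91801904, both on the minus strand, and capitals mark TTCCCA, the reverse complement of the RBPJ core TGGGAA.
Hey2: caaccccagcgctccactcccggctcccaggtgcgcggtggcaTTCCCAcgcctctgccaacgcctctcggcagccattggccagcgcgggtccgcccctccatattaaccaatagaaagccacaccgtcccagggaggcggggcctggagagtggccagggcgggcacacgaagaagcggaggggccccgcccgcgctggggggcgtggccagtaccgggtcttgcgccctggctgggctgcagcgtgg
Irx3: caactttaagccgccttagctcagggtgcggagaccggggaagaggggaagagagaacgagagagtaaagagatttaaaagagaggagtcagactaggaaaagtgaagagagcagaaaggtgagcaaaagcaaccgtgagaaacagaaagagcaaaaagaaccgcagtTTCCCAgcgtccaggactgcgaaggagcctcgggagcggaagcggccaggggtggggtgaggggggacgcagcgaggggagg
The match stood 207 to 202 bases before the start in *Hey2*, 82 to 77 bases before it in *Irx3* and 163 to 158 bases before it in *Irx2*, and the *Irx4* window had none. These letters, on either strand, are common, at 21.6% of 32851 promoter windows of the same length. The E-box CACGTG bound by HEY and HES factors (6.02% of all windows), the Iroquois palindrome ACANNTGT (6.31%) and the GATA motif AGATAA (9.99%), which do not overlap the RBPJ core, had no match in any of the 4 windows on either strand. The GC content was 71.6% in the *Hey2* window, 68.8% in that of *Irx4*, 68.4% in that of *Irx2* and 56% in that of *Irx3*, against a median of 52.4% over all windows, and the 4 windows held 13 to 22 CpG dinucleotides against a median of 6. Promoter letters describe the sequence and were not tied to any level below.

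The values below are log2 signals, that is log2 of the processed spot intensity minus the 75th percentile of the same array, so that 0 is the level of the 75th percentile. Genotype cannot be told apart from slide or scan day, since all WT arrays were on 1 slide and all SIRT1 KO arrays on another, scanned on another day. The share of probes well above background was 59.5% to 64.9% per array, no spot was saturated, and the 75th percentile was 939 to 1033 intensity units in WT and 777 to 906 in SIRT1 KO. *Sirt1* itself goes against the label on its brighter probe (A_52_P358612), where the WT hearts read -0.14, 0.32, 0.00 and 0.00 and the hearts labelled SIRT1 KO read 0.64, 0.50, 0.43 and 0.75 (log2 fold change 0.54, standard error, or SE, 0.11, limma adjusted p = 0.0323), and the other probe (A_51_P141152) gave -0.11 (adjusted p = 0.589). The first kept its direction in all 17 alternatives and lost its call in 11 of them. Where the 2 probes lie in the transcript was not analysed here, so that neither is known to sit in the deleted part, and every direction below is between libraries by their labels. The 4 hearts of a genotype are separate samples whose litters are not given.

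*Irx4*, *Irx1*, *Irx2*, *Irx5*, *Irx6*, *Hey1* and *Hey2* were well above background in all 8 hearts, and *Irx3* was not in any. Of the 10 member probes tested with limma, 0 passed an adjusted p of 0.05, against 4.88% of all 25615 tested probes. Of all probes 3.97% were called up and 0.91% down in the hearts labelled SIRT1 KO. This split turned with median scaling (680 of 1784 calls up) and without scaling (639 of 6352 calls up). The methods' analysis of variance also called 0 of the 10, where it called 2.13% of all probes. By either tool 1 member probe had an unadjusted p under 0.05, the brighter one of *Irx1*, and 21.5% of all probes did so in limma. The 2 genotypes overlapped for each of the 10 probes, whereas 13.7% of all probes had groups that did not overlap (8.64% with SIRT1 KO higher and 5.09% with it lower). SEs of the member probes lay between 0.09 and 0.22, beside a median of 0.11 over all tested probes, and adjusted p-values between 0.21 and 0.964. The median log2 fold change of the 7 detected members, on the brightest probe of each, was 0.01, and that of all tested probes was 0.01. Signals of different probes depend on the probe as well as the transcript, so the members are not ranked by level.

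**Figure D1:**
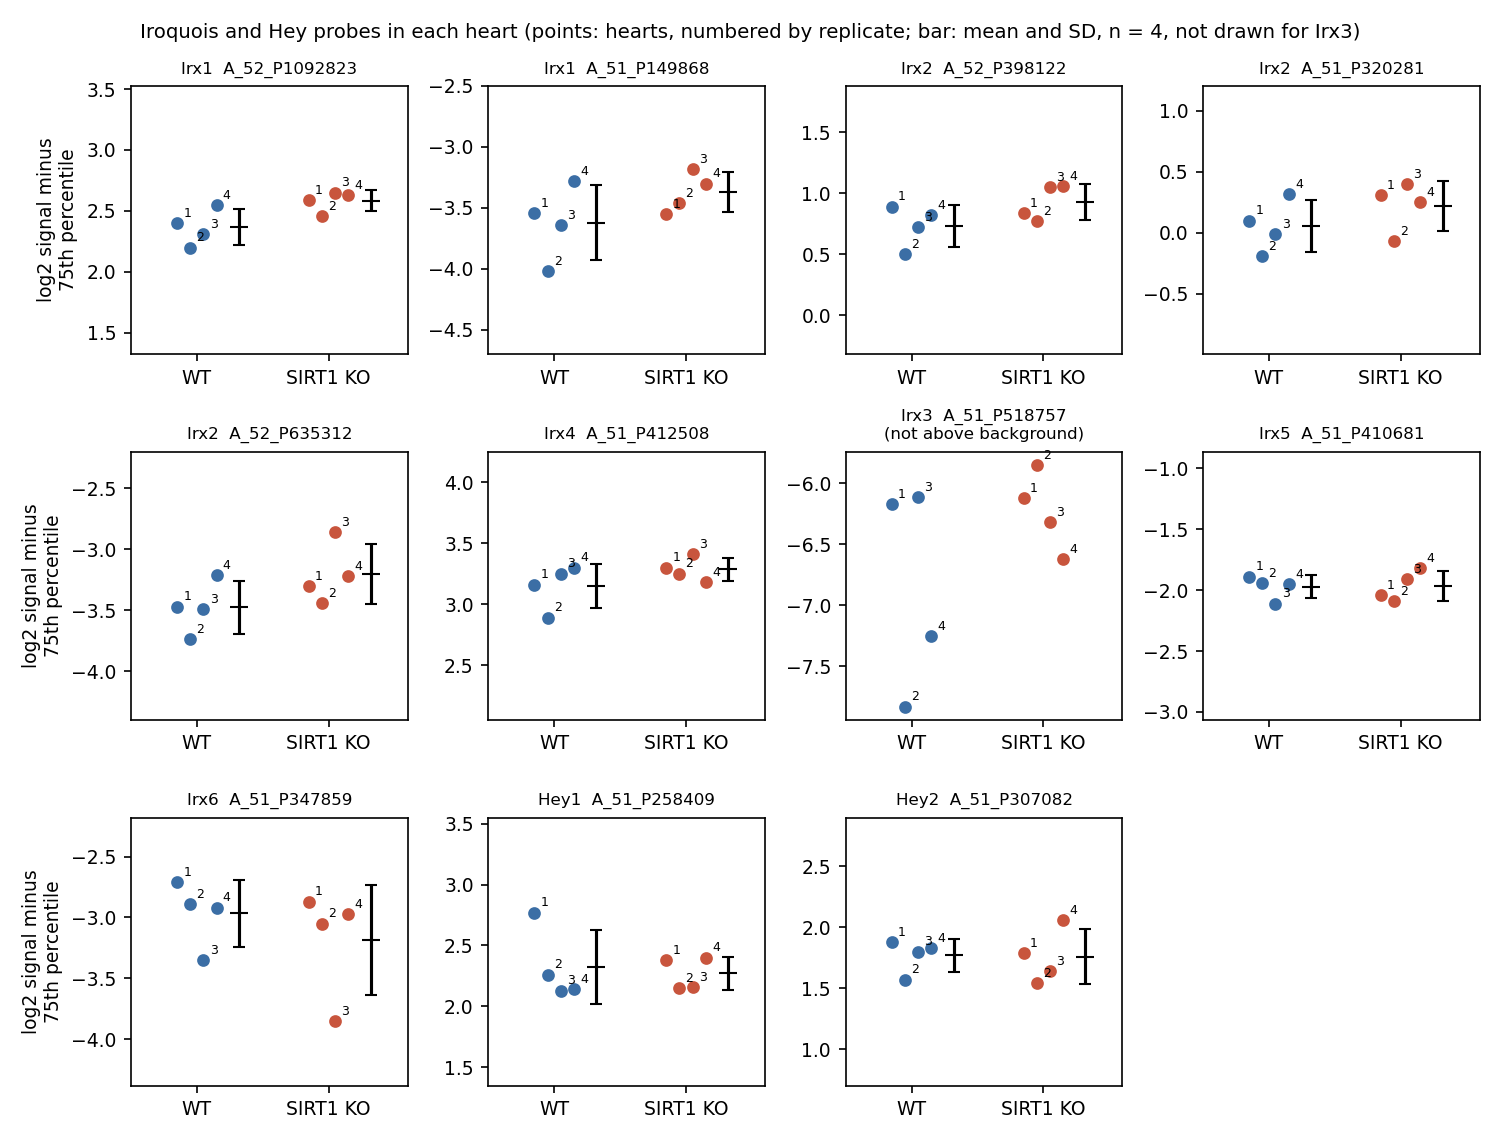
Log2 signal (minus the 75th percentile of the array, vertical axis) of the 11 Iroquois and Hey probes in the WT and SIRT1 KO hearts, with 1 point per heart numbered by replicate and a bar for the mean and SD of 4 hearts (not drawn for *Irx3*, well above background on 0 of 8 arrays). Every axis spans the same range of log2 units, and the points of the 2 genotypes overlap in each of the 10 tested probes.

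*Irx4*, the ventricular marker of the family, gave 3.16, 2.89, 3.25 and 3.30 in WT hearts 1 to 4 and 3.30, 3.25, 3.41 and 3.18 in the hearts labelled SIRT1 KO (A_51_P412508). The single low reading was WT replicate 2, and the other 7 hearts lay within 3.16 to 3.41. The group means were 3.15 ± 0.18 and 3.29 ± 0.10 (SD, n = 4), a log2 fold change of 0.13 (SE 0.10, 95% confidence interval -0.10 to 0.37, limma adjusted p = 0.491, and p = 0.229 in the exact two-sided permutation test). On the linear scale the interval runs from 0.932 to 1.29-fold, so it holds no change as well as a rise of that size. With 1 heart left out at a time, the log2 fold change of *Irx4* lay between 0.05 and 0.18, and it was -0.09 when the arrays were not scaled.

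*Irx1*, which is expressed in the ventricular septum and trabeculae, was read by a bright and a dim probe. The bright one (A_52_P1092823) gave 2.40, 2.20, 2.31 and 2.55 in the WT hearts and 2.59, 2.46, 2.65 and 2.63 in the hearts labelled SIRT1 KO. WT replicate 4 lay above SIRT1 KO replicate 2, and otherwise the 2 sets were apart. The log2 fold change was 0.22 (SE 0.09, 95% confidence interval 0.01 to 0.43, limma adjusted p = 0.21, exact permutation p = 0.0571), where 4 against 4 hearts cannot give a permutation p below 0.0286. This is a 1.16-fold higher reading (1.01 to 1.34), unadjusted, and it fails the correction over all probes. The dim probe (A_51_P149868) ran from -4.02 to -3.28 in WT and from -3.55 to -3.18 in SIRT1 KO, and its fold change was 0.25 (adjusted p = 0.387). Its intensities were 63.8 to 96.8 units, and its correlation with the bright probe over the 8 hearts was 0.89.

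*Irx2*, the neighbour of *Irx1* with a similar expression domain, was read by 3 probes. The brightest (A_52_P398122) gave 0.89, 0.50, 0.72 and 0.82 in the WT hearts and 0.84, 0.77, 1.05 and 1.06 in the hearts labelled SIRT1 KO. SIRT1 KO replicates 3 and 4 read above every WT heart, and replicates 1 and 2 lay within the WT range. The log2 fold change was 0.20 (SE 0.11, 95% confidence interval -0.05 to 0.45, limma adjusted p = 0.336, exact permutation p = 0.171). The other *Irx2* probes gave 0.17 (A_51_P320281, adjusted p = 0.514) and 0.27 (A_52_P635312, adjusted p = 0.32), and the 3 probes correlated with one another at 0.80 to 0.90 over the hearts.

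The 6 probes of *Irx1*, *Irx2* and *Irx4* thus all had a positive fitted value and none passed the test, while 51.7% of all tested probes were positive, and without scaling the bright *Irx1* probe (-0.0010), 2 of the 3 *Irx2* probes (-0.02 and -0.05) and *Irx4* (-0.09) turned negative. In that setting the median of all tested probes was itself -0.21, and the 4 values stood above it. WT replicate 2 was the lowest of the 8 hearts in all 6 probes, SIRT1 KO replicate 3 was the highest in 5 and SIRT1 KO replicate 4 in 1. Without WT replicate 2 the log2 fold changes were 0.16 and 0.11 for the 2 *Irx1* probes, 0.12, 0.08 and 0.19 for the 3 *Irx2* probes and 0.05 for *Irx4*. The 6 probes share hearts and genes and do not count as separate support for a direction.

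*Irx5*, the repressor of *Kcnd2*, read -1.89, -1.94, -2.11 and -1.95 in the WT hearts and -2.04, -2.09, -1.91 and -1.82 in the hearts labelled SIRT1 KO (A_51_P410681). The 2 groups covered nearly the same range, and this was the tightest of the tested members, with a log2 fold change of 0.01, an SE of 0.09 and an interval of -0.19 to 0.21 (limma adjusted p = 0.964). Its interval therefore holds changes between 0.876 and 1.16-fold, and the sign turned with the scaling, to -0.04 with quantile normalization and -0.12 with median scaling. *Kcnd2* gave 0.07 (SE 0.15, adjusted p = 0.821).

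*Irx6*, a cluster neighbour of *Irx5* that the heart expresses in trabecular myocardium, had the widest spread of the tested members. It read -2.71, -2.89, -3.35 and -2.92 in WT and -2.87, -3.05, -3.85 and -2.97 in SIRT1 KO (A_51_P347859). The low readings were replicate 3 of each genotype, at intensities down to 53.8 units. The log2 fold change was -0.21 (SE 0.22, 95% confidence interval -0.72 to 0.29, limma adjusted p = 0.615), and 0.01 without SIRT1 KO replicate 3, -0.34 with median scaling and -0.43 without scaling.

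*Irx3*, the conduction-system member, was well above background on 0 of 8 arrays (A_51_P518757), at intensities of 4.53 to 15.6 units. Its readings, from -7.83 to -5.85, carry no order, and no fold was computed. One probe cannot tell a low transcript level from a poor probe.

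*Hey1*, the atrial and endocardial factor, read 2.77, 2.26, 2.13 and 2.14 in the WT hearts and 2.38, 2.15, 2.16 and 2.40 in the hearts labelled SIRT1 KO (A_51_P258409). WT replicate 1 stood above the other 7 hearts, which covered 2.13 to 2.40. The log2 fold change was -0.05 (SE 0.15, 95% confidence interval -0.39 to 0.28, limma adjusted p = 0.873), and it was 0.10 without WT replicate 1, -0.18 with median scaling and -0.27 without scaling.

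*Hey2*, the factor of the compact ventricular wall, read 1.88, 1.57, 1.80 and 1.83 in WT and 1.79, 1.54, 1.64 and 2.06 in SIRT1 KO (A_51_P307082). The highest and the lowest heart were both SIRT1 KO. The log2 fold change was -0.01 (SE 0.12, 95% confidence interval -0.29 to 0.26, limma adjusted p = 0.96), so changes from 0.817 to 1.20-fold lie inside the interval. The value was -0.14 with median scaling, -0.23 without scaling and 0.01 with quantile normalization.

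*Heyl*, the other HEY gene and the one best known from smooth muscle, is no member and was looked at as a relative. Its brighter probe (A_52_P337259) gave a log2 fold change of -0.13 (adjusted p = 0.563). Its dimmer probe (A_51_P339417) read -1.56 to -1.40 in WT and -1.91 to -1.58 in SIRT1 KO. The groups did not overlap, as for 13.7% of all probes (5.09% with SIRT1 KO lower). The log2 fold change of -0.24 failed the correction (adjusted p = 0.17).

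**Figure D2:**
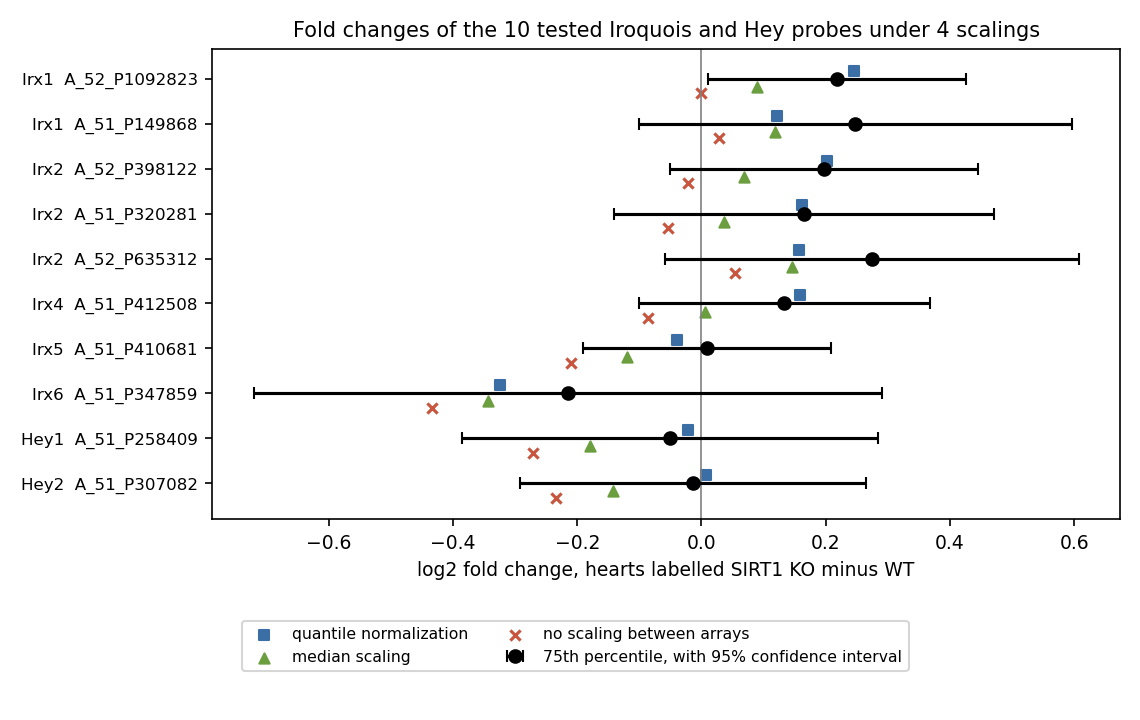
Log2 fold change (hearts labelled SIRT1 KO minus WT, horizontal axis) of the 10 tested Iroquois and Hey probes, with the 95% confidence interval of the limma fit around the black points scaled to the 75th percentile, and the same fold change under 3 other ways of scaling the arrays. All intervals but that of the brighter *Irx1* probe (0.01 to 0.43) include 0, and median scaling and no scaling move every probe to the left.

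How the members varied together was measured over the 8 hearts on the brightest probe of each gene. Of 21 pairs, 0 passed an adjusted p of 0.05 in the exact permutation test of Pearson's r or Spearman's rho. By Pearson 2 had an unadjusted p under 0.05, both inside the *Irx1*, *Irx2* and *Irx4* cluster, and by Spearman 2 did, *Irx1* with *Irx2* and *Irx5* with *Hey1* (rho 0.76, exact permutation p = 0.0368, adjusted 0.386). *Irx1* and *Irx2* had a Pearson r of 0.88 (exact permutation p = 0.00285, adjusted over the 21 pairs 0.0599) and a Spearman rho of 0.83 (exact permutation p = 0.0154, adjusted 0.323). Without the 2 hearts farthest from the *Irx1* median, WT replicates 2 and 3, r was 0.65. Within WT r was 0.80 and within SIRT1 KO 0.89, each over 4 hearts and given as values only. *Irx1* and *Irx4* had an r of 0.75 (exact permutation p = 0.0214, adjusted 0.225) and a rho of 0.67 (exact permutation p = 0.0831, adjusted 0.404), with r falling to 0.54 without the same 2 hearts. *Irx2* and *Irx4* gave 0.67 (adjusted p = 0.494 by the exact permutation test). Without scaling r was 0.71 for *Irx1* and *Irx2*, 0.46 for *Irx1* and *Irx4* and 0.35 for *Irx2* and *Irx4*. Over all pairs r ran from -0.54, for *Irx4* and *Irx6*, to 0.88, and 15 of 21 were positive. *Hey1* and *Hey2* gave 0.48 (adjusted p = 0.505 by the exact permutation test).

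**Figure D3:**
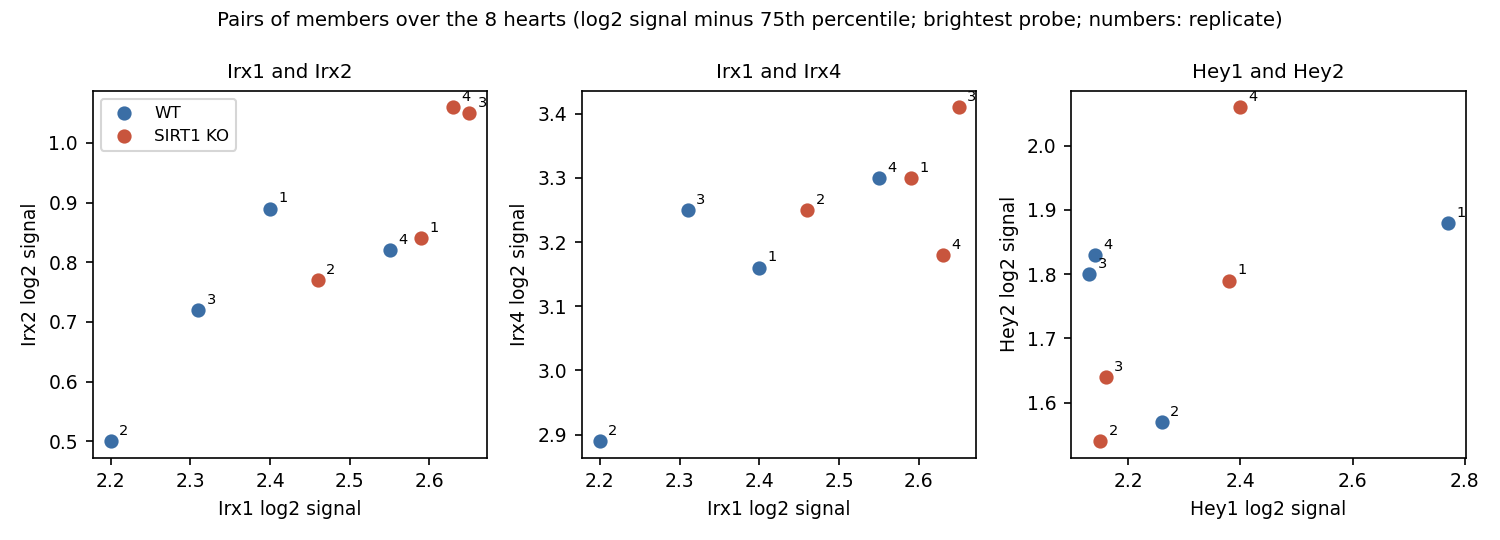
Log2 signal of *Irx2* against *Irx1*, *Irx4* against *Irx1* and *Hey2* against *Hey1* over the 8 hearts (brightest probe, each axis relative to the 75th percentile of the array), with points numbered by replicate and colored by genotype. WT replicate 2 is the lowest heart for *Irx1*, *Irx2* and *Irx4*, and WT replicate 1 is the highest for *Hey1*.

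Among 13535 genes compared on their brightest probe, the 3 whose pattern over the 8 hearts was most like *Irx4* were *Crot*, a peroxisomal carnitine acyltransferase (r = 0.97), *Sh3d21* (r = 0.96) and *Ctc1*, a telomere maintenance factor (r = 0.95), and 23 genes exceeded 0.9. For *Hey2* they were *Ppp1r3c*, a glycogen-targeting phosphatase subunit (r = 0.99), the transcription factor *Klf15* (r = 0.97) and *Ints9*, an Integrator subunit (r = 0.97), with 26 genes above 0.9. These are the highest of 13535 values over 8 hearts, so they describe the likeness and carry no test.

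The protein-coding genes next to the 2 clusters were also read, in the order of the RefSeq assembly, a comparison chosen after values were seen. Beside *Irx1*, *Irx2* and *Irx4* on chromosome 13, the 3 genes on either side (*Ube2ql1*, *Med10* and *Ice1*, then *Ndufs6*, *Mrpl36* and *Clptm1l*) had log2 fold changes between -0.21 and 0.04, and none passed the test. Beside *Irx3*, *Irx5* and *Irx6* on chromosome 8, 1 of 6 genes passed, where 4.58% of all genes did. This was *Fto*, an RNA demethylase gene whose introns are known to hold distal elements that contact *Irx3*, which read 0.14, -0.02, 0.18 and 0.26 in WT and 0.58, 0.44, 0.46 and 0.47 in the hearts labelled SIRT1 KO (A_51_P199899). The 2 groups did not overlap, as for 13.7% of all probes, and the log2 fold change was 0.35 (SE 0.08, limma adjusted p = 0.0444). The call was lost in 13 of 17 alternatives, with the direction kept in all. These included the 8 fits that left out 1 heart, where the lowest adjusted p was 0.0525, median scaling (0.22, adjusted p = 0.129), no scaling (0.13, adjusted p = 0.325), no filter on dim probes (adjusted p = 0.0904) and the methods' analysis of variance (adjusted p = 0.0652). A dimmer *Fto* probe (A_52_P72487) gave 0.11 (adjusted p = 0.521). *Aktip*, *Rpgrip1l*, *Mmp2* and *Lpcat2* lay between -0.12 and 0.08, and *Ces1c* at 0.57 had an SE of 0.55.

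Of the 74 genes in 6 lists of pathways and chambers around the members, 72 were tested on their brightest probe and 0 passed the limma test or the methods' analysis of variance, against 4.58% of all 13594 genes read this way (3.69% higher and 0.897% lower). By limma 11 of the 72 had an unadjusted p under 0.05, as did 20.4% of all genes on their brightest probe. In the Notch and HES/HEY list, 8 of 18 genes were positive and the median log2 fold change was -0.03. The 2 with the smallest p were *Maml1*, a Notch coactivator (0.27, adjusted p = 0.15), and *Nrarp*, a Notch target that feeds back on the pathway (0.30, adjusted p = 0.163). These 2 fell to 0.14 and 0.17 with median scaling and to 0.05 and 0.08 without scaling. The receptor *Notch1* gave -0.13 (adjusted p = 0.728), the ligand *Jag1* -0.26 (adjusted p = 0.406), *Rbpj* -0.04 (adjusted p = 0.822) and the target *Hes1* -0.08 (adjusted p = 0.728).

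Among 16 cardiac transcription factors tested of 17, the median was 0.06. *Rxra*, a retinoid receptor, had the smallest p at 0.30 (adjusted p = 0.106), followed by *Mef2a* at 0.19 (adjusted p = 0.192). Of the 2 tested *Rxra* probes 1 was positive. Without scaling *Rxra* gave 0.09 and *Mef2a* -0.03, and with normexp *Mef2a* gave -0.02. The 12 channels and connexins, the output through which *Irx3* and *Irx5* are known to act on conduction, had a median of 0.02, with 5 of 12 unadjusted p-values under 0.05 beside the 20.4% of all genes. The 2 smallest belonged to *Gjd3*, a connexin gene of the atrioventricular node (0.42, adjusted p = 0.0794), and to *Cacna1c*, the L-type calcium channel (0.35, adjusted p = 0.114). *Gja1*, which *Irx3* is known to repress, gave -0.24 (adjusted p = 0.251) and *Gja5*, which it activates, -0.29 (adjusted p = 0.414). Of 11 trabecular and compact wall genes the median was -0.10, and the smallest p-values were those of the neuregulin receptor *Erbb2* (0.23, adjusted p = 0.168) and of *Sema3c* (-0.41, adjusted p = 0.268). *Erbb2* gave 0.01 without scaling. *Sema3c* gave -0.05 with normexp on the median signal, and -0.55 to -0.26 as each heart was left out, the smallest without SIRT1 KO replicate 4. The signs of these medians turned with the processing. Over the alternatives they ran from -0.25 to 0.06 (Notch and HES/HEY), -0.16 to 0.10 (transcription factors), -0.20 to 0.09 (channels and connexins) and -0.32 to 0.17 (trabecular and compact). The low ends came from unscaled arrays, on which all probes had a median of -0.21, and normexp on the median signal gave the 0.06 and the 0.17.

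**Figure D4:**
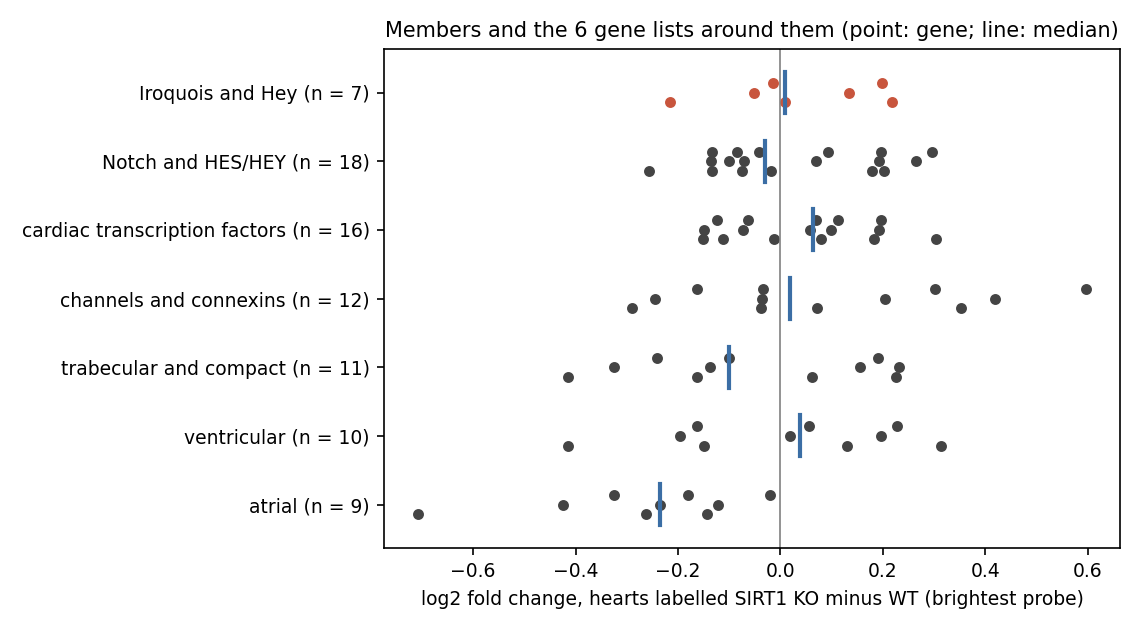
Log2 fold change (hearts labelled SIRT1 KO minus WT, horizontal axis) of the 7 detected Iroquois and Hey genes (red) and of the tested genes in the 6 surrounding lists (grey), on the brightest probe of each gene, with a line at the median of each row. The member median lies at 0.01, and of the rows shown here the atrial one alone has every point below 0.

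Chamber markers bear on how much ventricle and atrium each sample held. The 10 ventricular genes had a median of 0.04 with 6 positive, and this median ran from -0.18 (no scaling) to 0.10 over the alternatives and was negative in 5 of 18, among them median scaling (-0.09), array weights (-0.05) and the fit without WT replicate 2 (-0.04). The smallest p was that of *Myh7*, the fetal ventricular myosin heavy chain (0.31, adjusted p = 0.136), and the next was that of *Cited1* (-0.20, adjusted p = 0.266). The *Myh7* value was 0.09 without scaling, 0.11 with normexp, 0.14 with quantile normalization and 0.19 with median scaling. A dimmer *Myh7* probe passed (A_52_P88033, 0.36, adjusted p = 0.0283), and its call was lost in 11 of 17 alternatives, with 0.14 without scaling (adjusted p = 0.215). The summed level of the list, in multiples of the 75th percentile, ran from 1044 to 1094 in WT and from 1100 to 1347 in the hearts labelled SIRT1 KO. Without scaling the 2 ranges overlapped, at 1020266 to 1129703 intensity units in WT and 949582 to 1174289 in SIRT1 KO. Each summed level adds linear signals, so the brightest genes of a list weigh most and the sum does not speak for every gene. In the ventricular list the WT means ran from 8.36 (*Myh7*) to -2.53 on the log2 scale. The 9 atrial genes tested were all negative, with a median of -0.24 (-0.46 to -0.13 over the alternatives). In the main limma fit 0 passed or had an unadjusted p under 0.05. The smallest p-values belonged to the calcium pump regulator *Sln* (-0.71, adjusted p = 0.384) and the potassium channel *Kcnj3* (-0.42, adjusted p = 0.399). With the replicate block *Kcnj3* passed (limma adjusted p = 0.0473). Leaving out SIRT1 KO replicate 2 gave -1.08 for *Sln* and -0.66 for *Kcnj3*, leaving out SIRT1 KO replicate 1 gave -0.33 for *Sln*, and leaving out WT replicate 2 gave -0.24 for *Kcnj3*. *Nr2f1* was well above background on no array. The atrial sums were 473, 717, 492 and 516 in WT hearts 1 to 4 and 330, 704, 442 and 364 in SIRT1 KO hearts 1 to 4. WT replicate 2, the lowest heart for *Irx1*, *Irx2* and *Irx4*, had the highest atrial sum, ahead of SIRT1 KO replicate 2, and its ventricular sum (1094) was also the highest of the 4 WT hearts. The part of chamber content in the *Irx1*, *Irx2* and *Irx4* readings was not tested.

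Lung, which is known to express IRX genes, and other tissues that lie beside the heart were checked by marker lists. Of 8 lung markers 4 (*Sftpb*, *Sftpa1*, *Sftpd* and *Nkx2-1*) were well above background on no array, and only 1 was tested. This was *Cldn18* (0.02, SE 0.80, limma adjusted p = 0.991), well above background on 2 WT and 3 SIRT1 KO arrays. Its value is too imprecise to show a difference or the lack of one. The summed level of the lung list was 0.05 to 0.14 in WT and 0.08 to 0.24 in SIRT1 KO. The 8 cardiomyocyte markers were read in every heart (summed level 894 to 991 in WT and 923 to 1048 in SIRT1 KO). Of them 6 were positive and 2 negative, with a median of 0.09 and 0 past the threshold. *Ttn* (0.47, adjusted p = 0.137) and *Tnnt2* (0.27, adjusted p = 0.183) were the smallest in p. The 6 liver genes tested were all positive, led in p by *Apoa2* and *Alb*, with a median of 1.32 and summed levels of 10.8 to 26.6 in WT and 12.5 to 114 in SIRT1 KO, and by limma 0 passed or had an unadjusted p under 0.05. SIRT1 KO replicates 1 and 4 stood apart (114 and 59.7), replicates 2 and 3 (17.8 and 12.5) lay within the WT range, and without SIRT1 KO replicate 1 the log2 fold change was 0.74 for *Apoa2* and 0.72 for *Alb*. Of 3 skeletal muscle genes tested, *Tnni2* (0.62, adjusted p = 0.0225) and *Myog* (0.52, adjusted p = 0.0291) rose, and of 2 neural and Schwann genes tested *Sox10* rose (0.80, adjusted p = 0.0199). None of the 3 passed in the methods' analysis of variance, and the call was lost in 11 of the 16 alternatives that tested *Myog* (0.28 with quantile normalization, adjusted p = 0.197), in 7 of 17 for *Tnni2* and in 4 of 17 for *Sox10*, with the direction kept in each. The *Sox10* value was 0.36 with normexp, where it passed. *Myog* read near background, at a WT mean of -5.46, and was well above it on 3 of 4 WT arrays. The 6 endothelial genes (least p *Tek* and *Kdr*, median -0.12) and 3 endocardial and valve genes (*Nfatc1* and *Npr3*, -0.13) were all negative, like the atrial genes. So were the 4 epicardial genes (*Msln* and *Upk3b*, -0.31), while 4 smooth muscle genes (*Myh11* and *Cnn1*) had a median of -0.16. These lists held 0 that passed limma, with 1 unadjusted p under 0.05 in each but the endocardial. In thymus the 1 gene tested did not pass and had an unadjusted p under 0.05 (*Dntt*, 0.80, adjusted p = 0.114). *Dntt* gave 0.54 without WT replicate 1, which lay at background, and 0.39 with normexp, where it passed (adjusted p = 0.022). The part of these tissues in the member values was not tested.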

How the data were processed

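Total RNA (500 ng per heart) from 4 WT and 4 SIRT1 KO hearts was labelled with Cy3 and hybridized to one-color Agilent whole mouse genome arrays. The authors deposited the intensity of every spot as Agilent Feature Extraction wrote it, background-subtracted and not scaled between arrays (version 12.0.0.7 per the file headers, 12 per the processing notes). The deposited series table held the same intensity values in 100% of spots. Log2 of the processed signal was taken, the 75th percentile over non-control spots subtracted, outlier spots left out and the spots of a probe averaged. Accessions without version were matched to RefSeq gene names (GRCm38.p6), which named 28223 of 41174 probes (68.5%). The array design uses another build, so the table gave names and gene order only. Probes well above background (over 0.5 of their spots) on at least 4 of 8 arrays were tested with limma 3.58.1 in R 4.3.3 and Benjamini-Hochberg adjustment at 0.05. Summaries used Python 3.11.15, pandas 2.3.3, numpy 2.4.6 and scipy 1.17.1, and plots matplotlib 3.10.9. The methods' analysis of variance, run with genotype as its only factor, was an alternative, beside other scalings, background corrections, filters, array weights, a replicate block and each heart left out. Precision is limited by the number of arrays. The fit was also run on simulated data, drawn separately for each probe. These held no slide or scan-day effect, so they cannot speak to the confounding of genotype with slide.

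The members, lists and motifs were chosen with earlier results of these data known. The text names all member probes, *Sirt1*, the genes of each list that passed or otherwise the 2 with the smallest p, and the 3 genes most like *Irx4* and *Hey2*. *Heyl*, *Fto* and the other genes beside the clusters, *Notch1*, *Jag1*, *Rbpj*, *Hes1*, *Kcnd2*, *Gja1*, *Gja5* genes not above background and list genes that passed under an alternative only were named after their values were seen. A gene is given by its brightest tested probe. Some marker genes are not reported here.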

Additional observations from a re-analysis of the deposited data

Results flagged for a closer look

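Of 84 sets of 4 hearts examined among the member probes, *Sirt1* and the named list genes, 1 held a heart far from the others, where chance gives about 1 in 20. It was WT replicate 1 for the thymus marker *Dntt* (A_51_P516085), at a log2 signal of -5.85 with the nearest WT heart at -4.85, a gap of 0.843 of the whole range. The lowest probe well above background on that array read -5.79, so the value lies at background.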

How the results depend on the processing

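No member probe passed the threshold under any of the 17 alternatives run. The count over all probes was 1250, and became 6352 without scaling, 2566 with normexp on the median signal (chosen after seeing the data), 546 with the methods' analysis of variance, 2277 with array weights and 657 to 1825 with 1 heart left out. Of the calls, 1017 were higher in SIRT1 KO, against 672 of 1051 with quantile normalization (median of all probes -0.02), 680 of 1784 with median scaling (-0.12) and 639 when arrays were not scaled (-0.21). The member median of 0.01 moved to -0.12 with median scaling, -0.21 without scaling and -0.04 to 0.10 with 1 heart left out. Signs turned with quantile normalization for *Irx5* (-0.040), *Hey2* (0.00658), the dim *Fto* probe (-0.0618) and *Cldn18* (-0.11). With median scaling they turned for *Irx5* (-0.12), the dim *Fto* probe (-0.021) and *Cldn18* (-0.11). Without scaling they turned for *Irx1* (-0.0010), *Irx2* (-0.022 and -0.054), *Irx4* (-0.086), *Irx5* (-0.21), the dim *Fto* probe (-0.11), *Mef2a* (-0.027) and *Cldn18* (-0.20). They turned with normexp for *Mef2a* (-0.021), and with array weights for *Irx5* (-0.00906), *Npr3* (0.042) and *Cnn1* (0.0097). With 1 heart left out the ranges that crossed 0 were *Irx5* -0.041 to 0.052, *Irx6* -0.34 to 0.0080, *Hey1* -0.12 to 0.10, *Hey2* -0.11 to 0.059, *Cldn18* -0.44 to 0.94, *Npr3* -0.23 to 0.045 and *Cnn1* -0.32 to 0.0085. Correlations turned for *Irx1* and *Hey1* (0.034, quantile) and, without scaling, for *Irx1* and *Irx6* (0.42), *Irx1* and *Hey1* (0.38), *Irx2* and *Irx6* (0.20), *Irx4* and *Irx6* (0.14) and *Irx4* and *Hey1* (0.17). Genes of the 6 pathway and chamber lists past the threshold were 0, and 6 without scaling (*Mfng*, *Mef2c*, *Hand2*, *Gja1*, *Mycn* and *Cited1*, all lower), 2 with normexp (*Cacna1c* and *Gjd3*), 2 with array weights (*Rxra* and *Gjd3*) and 0 to 1 with 1 heart left out (*Gjd3* without WT replicate 2 and *Rxra* without SIRT1 KO replicate 3). Of the named marker genes that did not pass, calls were gained by *Myh11* with median scaling (-0.37, adjusted p = 0.0467), by *Tek* (-0.47), *Kdr* (-0.41), *Myh11* (-0.46) and *Msln* (-0.76) without scaling, and by *Msln* (-0.57) and *Dntt* (0.39) with normexp. The causes were not tested. The brighter *Sirt1* probe kept its direction in all 17 and lost its call in 11 of them.

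Deviations from the group mean correlated by 0.20, 0.21, 0.06 and 0.14 between hearts of the same number, so the numbers were not taken as pairs, although every heart correlated best with its own number. With the replicate block 1 gene of those 6 lists passed (*Kcnj3*, -0.42, adjusted p = 0.0473), 0 member probes did, the *Fto* call was lost (adjusted p = 0.069) and 1185 probes did in all. Normexp on the mean signal was not run, since the arrays' mean signal was not analysed here, the series table repeats the main values, and a slide block could not be fitted because each slide holds 1 genotype.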
